A study of Homo sapiens with 16 samples.

Results

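Interferon-stimulated effector genes encode the proteins that carry out the antiviral state, and 43 of them were followed here across 4 treatments of MOLM-13 cells (Molm13 in the labels), an established line grown from human acute myeloid leukaemia. They are the rows of the deposited table, 43 of 60669 genes, whose symbol is on a list of well-known effectors of the interferon response. Each symbol matched 1 row. In general, an interferon binds its receptor, the kinases JAK1 and TYK2 act on STAT2 among others, and STAT2 joins IRF9 in a factor that binds the interferon-stimulated response element (ISRE) in the promoters of such genes. Unphosphorylated forms of the same factor can keep a low level of these genes going in cells that no virus has infected. The effectors then act on viral entry, RNA, translation and nucleotide supply, and on ISG15, a ubiquitin-like protein that is joined to other proteins.

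Cells in the combination group received an EZH2 inhibitor (EZH2i) and a PRMT5 inhibitor (PRMT5i) together, the PRMT5i group received 1 µM PRMT5i, the EZH2i group 1 µM EZH2i, and the DMSO group 0.005% DMSO, all for 4 days in RPMI1640 medium with serum. The labels give 1 µM for each inhibitor and no separate dose for the combination. EZH2 adds methyl groups to histone H3 as the catalytic subunit of PRC2, and PRMT5 methylates arginines of histones and other proteins. Both enzymes are drug targets in leukaemia research. Each group had 4 libraries of paired-end reads from total RNA. The labels do not name either compound. Nothing says whether replicates came from separate cultures, so the p-values reflect only how these samples vary, which may be technical.

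Expected counts totalled 31.1 to 52.9 per library, in units of 1e6, and all 43 genes passed the filter on low counts, as did 16555 genes in all. Levels are given as CPM, the count of a gene per 1e6 counts of its library, with library sizes scaled by trimmed mean of M values, and every adjusted p comes from the edgeR quasi-likelihood test with Benjamini-Hochberg adjustment over the 16555 genes, with a threshold of 0.05. A gene is said to rise or fall where it passed. Of 10 myeloid leukaemia markers all 10 had counts in every group, and their summed level was 2405 to 2610 CPM in combination, 2769 to 3100 in PRMT5i, 1726 to 1947 in EZH2i and 1804 to 2543 in DMSO libraries. Erythroid markers summed to at most 0.221 CPM and B cell markers to at most 2.01 CPM in any library. T and NK cell markers, mostly TRAC and NKG7, summed to 47.0 to 53.2 CPM in combination, 43.2 to 45.8 in PRMT5i, 56.7 to 73.7 in EZH2i and 47.1 to 61.3 in DMSO libraries. Epithelial and fibroblast markers, with KRT14 and CDH1 at 0 throughout, summed to 1.50 to 2.08 CPM in combination, 0.443 to 0.720 in PRMT5i, 1.55 to 3.92 in EZH2i and 0.434 to 1.06 in DMSO libraries. For markers of plasmacytoid dendritic cells, the cell type known for interferon production, the sums were 61.3 to 68.6 CPM in combination, 52.7 to 64.9 in PRMT5i, 72.7 to 84.4 in EZH2i and 46.5 to 80.9 in DMSO libraries. Nearly all of this was IL3RA and TCF4, and the defining CLEC4C averaged at most 0.209 CPM in any group. The part of these lists in the results below was not tested. In bulk RNA, fewer cells that express a gene and less of its RNA per cell cannot be told apart.

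The DNA element through which such genes are known to respond is shown first, since it can be read without the expression data. RefSeq promoters (GRCh38.p14, 250 bases before to 50 after the start of the gene) were at hand for 36 members. The core of the ISRE was searched as GAAA, any 2 bases and GAAA again, on either strand, where overlapping matches each count. It was found in 25 of the 36 (69.4%), against 1255 of all 35116 promoters in the table (3.57%). Of these members 10 held 1 core, 12 held 2 and 3 held 3. The windows below are read along the strand of the gene, 5′ to 3′. Capitals mark the cores within each window, which read TTTC, 2 bases and TTTC where they lie on the other strand. For IFI6, IFI44L and HERC5 the window leaves out part of the cores: their promoters hold 3 (IFI6), 2 (IFI44L) and 3 (HERC5). The set holds genes with a core whose values are given in every library below, then ISG15, whose product the conjugation enzymes attach, and BST2, which holds 2 overlapping cores and passed in 1 of the 6 comparisons. It was chosen with the results known.

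IFI6 (chr1:27672319-27672368, minus strand): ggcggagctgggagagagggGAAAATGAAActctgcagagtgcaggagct
IFI27 (chr14:94110608-94110670, plus strand): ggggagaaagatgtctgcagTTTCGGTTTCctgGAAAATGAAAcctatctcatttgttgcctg
IFI44L (chr1:78620264-78620313, plus strand): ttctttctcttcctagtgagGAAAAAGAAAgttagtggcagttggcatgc
IFI44 (chr1:78649751-78649800, plus strand): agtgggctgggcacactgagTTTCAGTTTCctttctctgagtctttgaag
MX1 (chr21:41420549-41420598, plus strand): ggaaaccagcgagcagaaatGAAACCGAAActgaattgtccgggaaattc
IFIT1 (chr10:89392487-89392549, plus strand): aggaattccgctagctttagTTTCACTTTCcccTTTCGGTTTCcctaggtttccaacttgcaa
IFIT3 (chr10:89327821-89327904, plus strand): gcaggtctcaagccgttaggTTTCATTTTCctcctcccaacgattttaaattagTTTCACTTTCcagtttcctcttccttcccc
IFITM1 (chr11:313980-314063, plus strand): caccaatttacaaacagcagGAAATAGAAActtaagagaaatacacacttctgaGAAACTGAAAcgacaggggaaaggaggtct
EPSTI1 (chr13:42992262-42992311, minus strand): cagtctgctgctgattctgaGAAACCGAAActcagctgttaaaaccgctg
HERC5 (chr4:88456974-88457023, plus strand): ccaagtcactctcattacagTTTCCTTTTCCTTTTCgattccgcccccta
LGALS3BP (chr17:78979952-78980001, minus strand): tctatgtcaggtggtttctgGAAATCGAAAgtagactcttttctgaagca
ISG15 (chr1:1013364-1013419, plus strand): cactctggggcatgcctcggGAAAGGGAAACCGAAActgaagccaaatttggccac
BST2 (chr19:17405725-17405780, minus strand): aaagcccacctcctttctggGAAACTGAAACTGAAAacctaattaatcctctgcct

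Members with and without the core can be set side by side. The test of the difference in EZH2i effect with and without PRMT5i, described below, was passed by 14 of the 25 members with a core and by 6 of the 11 without, with median log2 differences of 1.21 and 0.98. RSAD2, OAS1, XAF1 and HERC6 are among those with no core in the window. A match is a description of the letters and not evidence of binding, and no match says only that these letters are not in this window. IFIT2, IFITM2, MX2, OAS2, OASL, TRIM22 and USP18 had no promoter entry.

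Summed over the 43 genes, the level was 2596 to 3073 CPM in combination libraries, 2104 to 2323 in PRMT5i libraries, 1209 to 1287 in EZH2i libraries and 1456 to 1840 in DMSO libraries. The 4 groups did not overlap in this sum: it was lowest in cells given EZH2i alone and highest in cells given EZH2i with PRMT5i. Abundant genes weigh most in such a sum. SAMHD1 alone averaged 199 CPM with the combination, 304 with PRMT5i, 61.6 with EZH2i and 97.3 with DMSO. Since the members were chosen with earlier results of these data known, the sum carries no test. Per kilobase of exon, IFI6, ISG15 and BST2 were the most abundant members both in combination libraries (93.0, 89.9 and 69.6 CPM per kb) and in DMSO libraries (48.5, 53.5 and 48.0 CPM per kb). ISG20 was the least abundant in both, at 0.568 CPM per kb in combination and 0.478 CPM per kb in DMSO libraries. All 43 effectors were thus measurable in cells given DMSO.

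**Figure D1:**
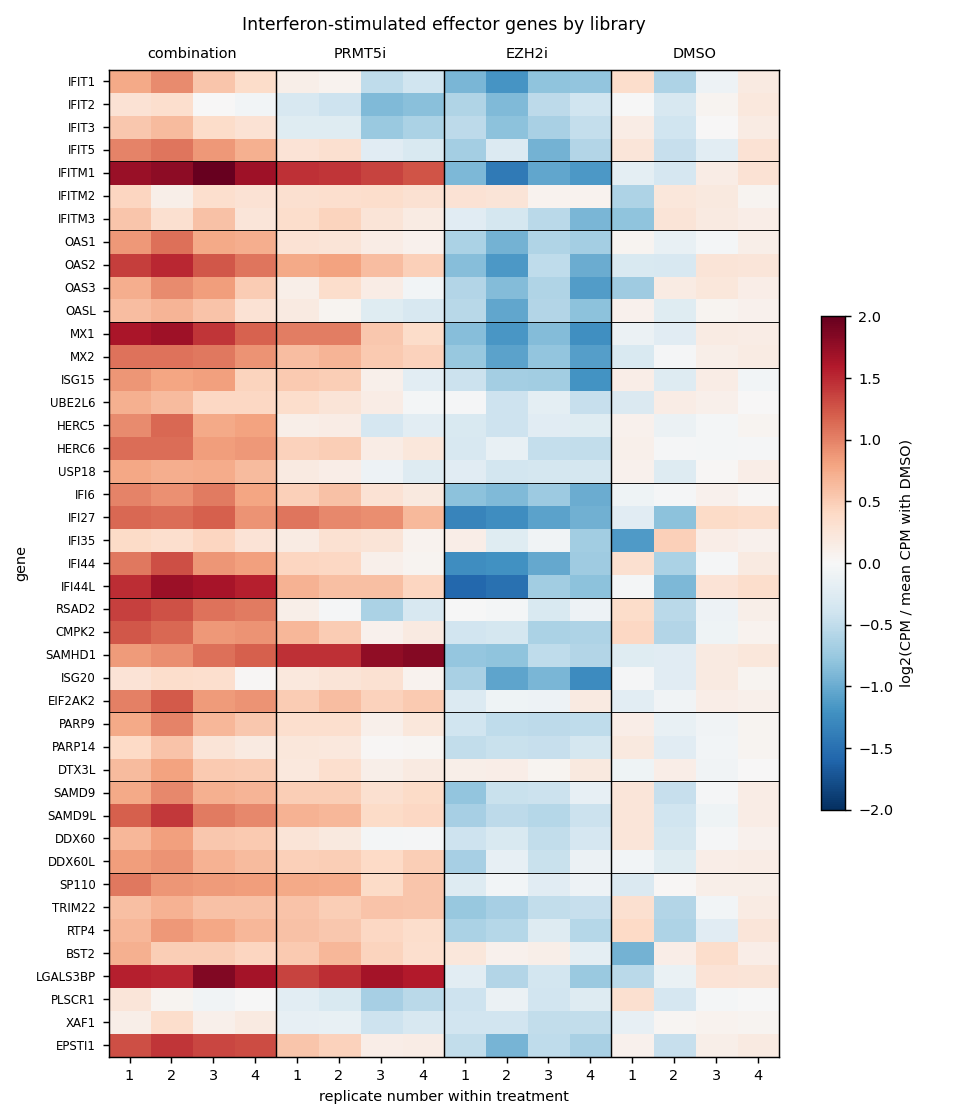
Level of each of the 43 genes in each of the 16 libraries, as log2 of its CPM over its mean CPM with DMSO; rows are genes grouped by role (divided by lines), columns are the replicates of each treatment, and red is higher and blue lower than the DMSO mean. Most rows are blue in EZH2i columns and red in combination columns, SAMHD1 is reddest in PRMT5i columns, and DMSO replicates 1 and 2 show a few rows of their own.

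EZH2i alone against DMSO lowered many effectors and raised none. Of 43 members 23 fell, 0 rose and 20 did not pass in edgeR, where 3.49% of all genes tested fell and 4.11% rose. The members' median log2 fold change was −0.50 and the median of all genes −0.01, and 40 of 43 estimates lay below 0. All 4 OAS genes and both MX genes fell, as did 3 of 4 IFIT genes, 4 of 5 genes with an IFI symbol in the IFI6 group, and 1 of 3 IFITM genes. Of 5 ISG15 conjugation genes 1 fell, ISG15 itself (log2 fold change −0.72, SE 0.17, adjusted p = 0.0194), while UBE2L6, HERC5, HERC6 and USP18 had estimates between −0.35 and −0.26 that did not pass. The ISG15 call was lost without DMSO replicate 3.

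MX1 (ENSG00000157601.13, chr21:41420304-41459214), a dynamin-like GTPase that traps viral nucleocapsids, had 22.9, 18.4, 22.6 and 17.6 CPM in EZH2i replicates 1 to 4 and 37.8, 35.2, 45.9 and 45.7 CPM in DMSO replicates 1 to 4. It fell with no overlap of the groups (log2 fold change −1.01, SE 0.16, adjusted p = 0.00173). Its paralog MX2, whose protein acts at the nuclear pore, had 17.1, 13.7, 16.6 and 13.4 CPM with EZH2i and 23.3, 28.3, 31.3 and 32.2 CPM with DMSO (log2 fold change −0.92, SE 0.11, adjusted p = 2.47e-04). Here too the groups did not overlap. The 2 genes thus lost about the same share of their level, to 0.495 (MX1) and 0.528 (MX2) of that with DMSO. OAS2, which makes the oligoadenylates that activate RNase L, had 14.6, 11.8, 18.5 and 13.2 CPM with EZH2i and 21.2, 21.0, 31.5 and 31.2 CPM with DMSO (log2 fold change −0.86, SE 0.16, adjusted p = 0.00552). Every EZH2i library lay below every DMSO library for OAS2, though the DMSO libraries formed a lower pair, replicates 1 and 2, and a higher pair.

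In the group of small interferon-induced proteins, IFI27 had 4.30, 4.56, 5.11 and 5.54 CPM with EZH2i and 9.20, 6.11, 14.1 and 13.7 CPM with DMSO (log2 fold change −1.15, SE 0.20, adjusted p = 0.00316). IFI44L had 4.52, 4.78, 8.28 and 7.64 CPM with EZH2i and 13.0, 7.20, 16.3 and 17.2 CPM with DMSO (log2 fold change −1.10, SE 0.23, adjusted p = 0.00937), and its neighbour on chromosome 1, IFI44, had 6.46, 6.57, 7.47 and 9.30 CPM with EZH2i and 18.9, 9.82, 14.9 and 17.2 CPM with DMSO (log2 fold change −1.04, SE 0.18, adjusted p = 0.00323). For IFI44L the groups overlapped, because DMSO replicate 2 lay below EZH2i replicates 3 and 4, while IFI27 and IFI44 did not overlap but also had DMSO replicate 2 as their lowest control. IFI6 (ENSG00000126709.14, chr1:27666061-27672218), which encodes a small membrane protein, had a steadier control level: 23.8, 22.7, 25.3 and 21.1 CPM with EZH2i and 39.3, 41.4, 44.4 and 42.7 CPM with DMSO (log2 fold change −0.85, SE 0.10, adjusted p = 1.45e-04). It had the smallest p of all members in this comparison.

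IFIT1 (ENSG00000185745.9, chr10:89392546-89406486), which binds viral RNA with unmethylated caps, had 22.2, 18.4, 23.9 and 24.1 CPM with EZH2i and 53.3, 27.2, 39.0 and 47.1 CPM with DMSO (log2 fold change −0.91, SE 0.19, adjusted p = 0.0105). IFITM1, a membrane protein that hinders the fusion of viral envelopes, had 4.49, 3.13, 4.06 and 3.79 CPM with EZH2i and 7.35, 6.67, 9.29 and 10.2 CPM with DMSO (log2 fold change −1.12, SE 0.14, adjusted p = 2.55e-04). Neither gene overlapped between the groups. The other IFITM genes did not pass (0.17 for IFITM2 and −0.48 for IFITM3). These 3 genes are hard to separate by counting: 32.0%, 34.3% and 35.2% of the 50-base stretches of IFITM1, IFITM2 and IFITM3 transcripts also occur in transcripts of other genes (GENCODE 29), so their single values are uncertain. ISG20, an RNA exonuclease, fell too (log2 fold change −0.96, SE 0.14, adjusted p = 8.80e-04) at means of only 1.81 CPM with EZH2i and 3.52 CPM with DMSO. Among enzymes of nucleotides and RNA, SAMHD1 and ISG20 were those that fell (SAMHD1 −0.66), while RSAD2 (−0.11), CMPK2 (−0.49) and the kinase gene EIF2AK2 (−0.06), which encodes PKR, did not pass.

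The size of this set changed with the libraries that entered the fit, and the cause was not tested. A fit of EZH2i and DMSO libraries alone called 7 of the 43 members and 135 genes in all, in place of 1259 genes, keeping IFITM1, MX1 and MX2 among those described above and losing OAS2, IFI27, IFI44, IFI44L and IFIT1. Without DMSO replicate 4 the count was 16 and without DMSO replicate 2 it was 33. Calls over all genes in these leave-out fits are not given here, so both counts describe the members only. Replicates 1 and 2 stand apart from replicates 3 and 4 in many genes of PRMT5i libraries. The division is less plain in combination libraries. There, replicates 1 and 2 differed from each other by 39.5 times the sampling variance, and from replicates 3 and 4 by 22.2 to 29.9 times. The sources used here do not say whether these pairs are batches. Within replicates 1 and 2 edgeR called 0 members and 0 genes in all, with 20 members and 1390 genes at an unadjusted p under 0.05 and a median of −0.50, and within replicates 3 and 4 it called 31 members lower with a median of −0.59, and 518 of 16503 genes lower.

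PRMT5i alone against DMSO raised some effectors, SAMHD1, LGALS3BP and IFITM1 the most. Of the 43 members 18 rose, 4 fell and 21 did not pass, where 17.1% of all genes rose and 18.3% fell, and 34 of 43 estimates lay above 0. The median was 0.31 for members and −0.00316 for all genes. SAMHD1 (ENSG00000101347.8, chr20:36889773-36951901), the enzyme that hydrolyses deoxynucleotides and restricts retroviruses in myeloid cells, had 269, 267, 333 and 348 CPM in PRMT5i replicates 1 to 4 and 82.5, 83.1, 110.1 and 114 CPM in DMSO replicates 1 to 4 (log2 fold change 1.64, SE 0.13, adjusted p = 8.20e-08). It thus stood 3.12-fold higher, the largest change of any member in this comparison, with replicates 3 and 4 above 1 and 2 in both groups. A gene on the opposite strand, TLDC2, covers 10.3% of its exon bases, and the sources used here do not say whether reads were counted by strand.

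LGALS3BP, a secreted glycoprotein that binds galectins, had 11.4, 12.5, 14.2 and 13.4 CPM with PRMT5i and 3.08, 4.08, 5.42 and 5.35 CPM with DMSO (log2 fold change 1.51, SE 0.16, adjusted p = 1.56e-06). IFITM1 had 23.1, 22.5, 21.5 and 20.1 CPM with PRMT5i, against the DMSO values given above (log2 fold change 1.37, SE 0.13, adjusted p = 5.51e-07). For both genes all 4 PRMT5i libraries lay far above the highest DMSO library. IFI27 had 22.7, 21.1, 20.6 and 16.9 CPM with PRMT5i (log2 fold change 0.91, SE 0.19, adjusted p = 0.00131). SP110, a nuclear body protein, had 33.7, 33.1, 25.9 and 29.3 CPM with PRMT5i and 16.2, 20.1, 21.6 and 21.5 CPM with DMSO (log2 fold change 0.62, SE 0.11, adjusted p = 2.42e-04), although 17.6% of its 50-base stretches occur in other transcripts.

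MX1 and OAS2 rose with PRMT5i by less and with a division among the treated libraries. MX1 had 83.9, 83.6, 59.9 and 53.1 CPM (log2 fold change 0.77, SE 0.16, adjusted p = 0.00117) and OAS2 had 44.1, 46.0, 40.3 and 36.5 CPM (log2 fold change 0.67, SE 0.16, adjusted p = 0.00359), with replicates 1 and 2 above 3 and 4 in both. Within replicates 3 and 4 neither call was kept, and that of OAS2 was also lost without DMSO replicates 1 and 2. The same order held widely: in PRMT5i libraries 34 of 43 members had both replicates 1 and 2 above both replicates 3 and 4, and 2 the reverse, where 24.5% of all tested genes did so and 24.5% the reverse. Within replicates 1 and 2 the members' median was 0.50 with 10 higher and 0 lower, where 636 of 17125 genes were higher and 833 lower. Within replicates 3 and 4 it was 0.14 with 9 higher and 7 lower, where 2859 of 16503 genes were higher and 2754 lower.

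The 4 genes that fell with PRMT5i were IFIT2, IFIT3, PLSCR1 and XAF1. IFIT2, a partner of IFIT1 and IFIT3 that promotes apoptosis, had 62.1, 58.3, 42.1 and 43.5 CPM with PRMT5i and 77.4, 62.3, 81.1 and 90.3 CPM with DMSO (log2 fold change −0.59, SE 0.15, adjusted p = 0.00527). The highest PRMT5i library and the lowest DMSO library nearly touched, and within replicates 1 and 2 the call was lost. IFIT3 fell as well (−0.45, SE 0.14, adjusted p = 0.0193), as did the scramblase gene PLSCR1 (−0.42, SE 0.13, adjusted p = 0.0203) and XAF1, which binds the apoptosis inhibitor XIAP (−0.26, SE 0.08, adjusted p = 0.0246). The lncRNA gene PRAL covers 38.3% of the exon bases of XAF1 on the other strand, so its level is uncertain. The calls of IFIT3, PLSCR1 and XAF1 were each lost without PRMT5i replicate 3 or 4 and with only the groups compared. Those of IFIT3 and XAF1 were also lost without DMSO replicate 4, that of XAF1 without DMSO replicate 3, and that of PLSCR1 without DMSO replicate 1. IFIT1 and IFIT5, of the same cluster, did not pass (−0.15 and 0.04).

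**Figure D2:**
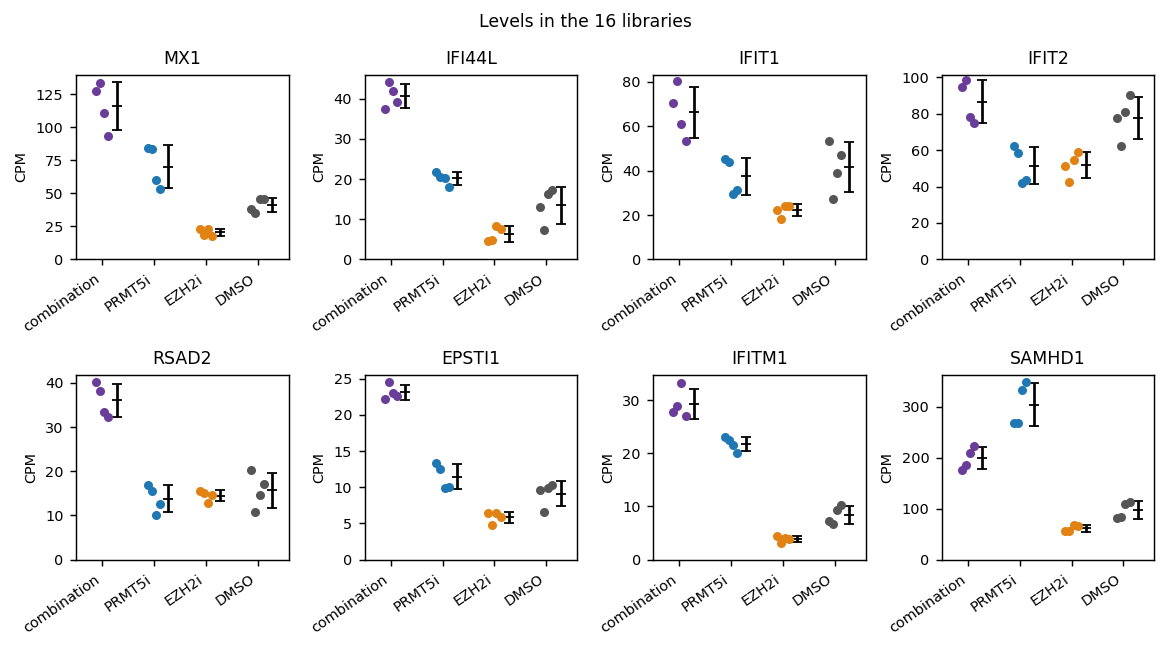
CPM of 8 members in the 16 libraries; points are libraries in replicate order, and the bar beside them gives the mean and SD (n = 4). IFI44L, EPSTI1 and RSAD2 are highest in combination libraries with no overlap with the other treatments, IFIT2 is low with either inhibitor alone, and SAMHD1 is highest with PRMT5i.

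With both inhibitors together, 36 of 43 members rose against DMSO and none fell in edgeR, where 17.6% of all genes rose and 18.5% fell. The remaining 7, namely IFIT2, IFITM2, IFITM3, IFI35, ISG20, PLSCR1 and XAF1, did not pass. The median was 0.77 for members and 0.00220 for all genes, and all 43 estimates were above 0. Both inhibitors alone were set against the same DMSO libraries. IFIT3, for example, had 0.46 with the combination, −0.45 with PRMT5i and −0.61 with EZH2i against DMSO.

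IFITM1 had 27.7, 28.9, 33.2 and 27.0 CPM in combination replicates 1 to 4 (log2 fold change 1.80, SE 0.13, adjusted p = 7.44e-08), which is 3.48-fold over DMSO. LGALS3BP had 13.2, 12.9, 16.2 and 14.2 CPM (log2 fold change 1.64, SE 0.16, adjusted p = 1.08e-06), a level that overlapped that of PRMT5i libraries. IFI44L had 37.5, 44.1, 42.0 and 39.3 CPM (log2 fold change 1.59, SE 0.22, adjusted p = 3.58e-05) and MX1 127, 133, 111 and 93.1 CPM (log2 fold change 1.49, SE 0.16, adjusted p = 3.18e-06). Both stood above every library of the other 3 treatments. EPSTI1, a gene induced by interferon in epithelium and leukocytes, had 22.2, 24.5, 23.0 and 22.6 CPM with the combination and 9.68, 6.61, 9.87 and 10.3 CPM with DMSO (log2 fold change 1.34, SE 0.14, adjusted p = 2.27e-06). The 5 ISG15 conjugation genes all rose against DMSO, ISG15 by 0.75, the conjugating enzyme UBE2L6 by 0.55, the ligase HERC5 by 0.92, its relative HERC6 by 0.99 and the deconjugating enzyme USP18 by 0.72 on the log2 scale. USP18 shares 23.4% of its 50-base stretches with other transcripts, nearly all with USP41.

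Against EZH2i alone the combination raised 39 of 43 members and lowered none in edgeR (13.4% of all genes rose and 14.6% fell), with a median of 1.24 for members and 0.00557 for all genes. IFITM2, IFI35, BST2 and PLSCR1 did not pass. The increase was largest for IFITM1 (2.92, SE 0.14, adjusted p = 2.41e-09), followed by IFI44L (2.69, SE 0.23, adjusted p = 4.34e-07), MX1 (2.51, SE 0.17, adjusted p = 3.13e-08), IFI27 (2.24, SE 0.20, adjusted p = 6.33e-07) and OAS2 (2.16, SE 0.17, adjusted p = 1.52e-07). The level of IFITM1 was thus 7.57-fold that with EZH2i alone. With the combination, IFI27 had 23.9, 23.5, 24.6 and 20.1 CPM and OAS2 68.5, 74.5, 62.0 and 55.0 CPM, far above the EZH2i libraries given above. Within replicates 1 and 2 the count was 35, where 412 of 17125 genes were higher, and within replicates 3 and 4 it was 41, where 1711 of 16503 were higher, with medians of 1.37 and 1.13.

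Adding EZH2i to PRMT5i, the comparison of the combination with PRMT5i alone, raised many effectors, whereas EZH2i alone raised none. Of 43 members 24 rose, 1 fell and 18 did not pass, where 2.91% of all genes rose and 1.24% fell. The median was 0.49 for members and −0.000386 for all genes. RSAD2 (ENSG00000134321.11, chr2:6865806-6898239), which encodes viperin, an enzyme that makes a chain-terminating nucleotide, had 40.3, 38.1, 33.4 and 32.3 CPM with the combination and 17.0, 15.4, 10.1 and 12.6 CPM with PRMT5i (log2 fold change 1.39, SE 0.17, adjusted p = 3.86e-04). It passed with neither inhibitor alone, at 15.6, 15.2, 12.7 and 14.5 CPM with EZH2i and 20.2, 10.8, 14.6 and 17.1 CPM with DMSO, and was higher in every combination library than in any other.

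EPSTI1 had 13.4, 12.5, 9.96 and 10.1 CPM with PRMT5i, every library below every combination library (log2 fold change 1.01, SE 0.14, adjusted p = 6.89e-04). IFI44L had 21.8, 20.4, 20.3 and 18.1 CPM with PRMT5i (log2 fold change 1.01, SE 0.22, adjusted p = 0.0138), a call that was lost without PRMT5i replicate 3 or 4. HERC5, the ligase that attaches ISG15, had 28.9, 33.3, 25.6 and 26.4 CPM with the combination and 16.3, 16.7, 11.9 and 13.0 CPM with PRMT5i (log2 fold change 0.98, SE 0.11, adjusted p = 2.41e-04). IFIT3, which stabilises IFIT1 on RNA, had 86.9, 92.6, 77.3 and 73.3 CPM with the combination and 50.6, 50.5, 35.9 and 38.5 CPM with PRMT5i (log2 fold change 0.91, SE 0.14, adjusted p = 0.00178). In both genes the 2 groups stood apart by more than the range of either. All 4 IFIT genes and both MX genes rose in this comparison, as did 3 of 4 OAS genes and 0 of 3 IFITM genes.

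The comparison shares no library with that of EZH2i and DMSO. Of the 24 genes that rose, 15 had fallen with EZH2i alone, which is also 15 of the 23 that fell there: IFIT1, IFIT2, IFIT3, OAS1, OAS2, OASL, MX1, MX2, IFI6, IFI44, IFI44L, PARP9, SAMD9L, XAF1 and EPSTI1. A further 9 were among the 20 that had not passed with EZH2i alone, including RSAD2, CMPK2, HERC5, USP18 and EIF2AK2. Whether the 2 sets overlap more than their sizes give was not tested, and the overlap over all genes is not given here. IFITM1, OAS3, ISG15, IFI27, ISG20, PARP14 and TRIM22 had fallen with EZH2i alone and did not pass here. Counts in this comparison moved with single libraries: 11 without PRMT5i replicate 3, 12 without PRMT5i replicate 4 and 15 without combination replicate 2. The calls over all genes in these fits are not given here, so the members' loss cannot be set against that of genes at large. Within replicates 1 and 2 edgeR called 0 of 43 members and 1 gene in all, with 24 members and 1073 genes at an unadjusted p under 0.05, and within replicates 3 and 4 it called 24 members higher and 1 lower, and 457 of 16503 genes higher and 140 lower.

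The difference itself was tested as an interaction, the effect of EZH2i in the presence of PRMT5i minus its effect in its absence. It compares 2 contrasts that share no library. Of 43 members 25 had a positive interaction and none a negative one in edgeR, where 0.254% of all genes had a positive and 0.0362% a negative one. The members make up 25 of the 42 genes with a positive interaction among 16555. The median was 1.04 for members and 0.01 for all genes, and 41 of 43 estimates lay above 0. IFI6 had the smallest p of all genes tested.

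IFI6 had 83.8, 79.3, 86.4 and 72.4 CPM with the combination and 58.6, 62.7, 51.2 and 48.0 CPM with PRMT5i, so that EZH2i raised it by 0.55 (log2) where PRMT5i was present and changed it by −0.85 where it was absent (interaction 1.40, SE 0.14, adjusted p = 1.43e-04). OAS1 had 38.6, 45.1, 35.8 and 34.8 CPM with the combination, 25.7, 25.1, 23.4 and 22.3 with PRMT5i, 13.6, 11.0, 13.8 and 13.1 with EZH2i and 21.8, 19.0, 20.6 and 23.0 with DMSO (interaction 1.39, SE 0.14, adjusted p = 1.82e-04). For OAS1, PRMT5i and DMSO libraries overlapped while EZH2i libraries were below and combination libraries above both. MX2 had 61.3, 61.0, 59.9 and 53.7 CPM with the combination and 44.2, 46.0, 41.4 and 39.6 with PRMT5i (interaction 1.38, SE 0.16, adjusted p = 4.42e-04). EPSTI1 had 6.46, 4.78, 6.39 and 5.83 CPM with EZH2i (interaction 1.65, SE 0.20, adjusted p = 7.94e-04). IFITM1 passed as well (1.55, SE 0.19, adjusted p = 7.94e-04), with a log2 fold change of −1.12 with EZH2i alone, whereas its difference on top of PRMT5i, 0.42, did not pass (adjusted p = 0.0753).

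By role, the interaction was positive for 4 of 4 IFIT, 4 of 4 OAS and 2 of 2 MX genes, for 4 of 5 ISG15 conjugation genes and for 3 of 5 genes of the IFI6 group. It passed for 2 of 5 nucleotide and RNA enzymes, 2 of 4 SAMD9 and DDX60 genes, 1 of 3 IFITM genes, 1 of 3 of the PARP9, PARP14 and DTX3L set, and 2 of 8 other effectors. The largest estimate was that of IFI44L at 2.11, followed by IFI44 at 1.80 and by IFIT1 and MX1, both at 1.74. The count was 0 of 43 within replicates 1 and 2 (edgeR, 0 genes in all, 30 members and 514 genes at an unadjusted p under 0.05, median 0.91) and 31 of 43, all positive, within replicates 3 and 4 (median 1.18), where 155 of 16503 genes had a positive and 140 a negative one.

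**Figure D3:**
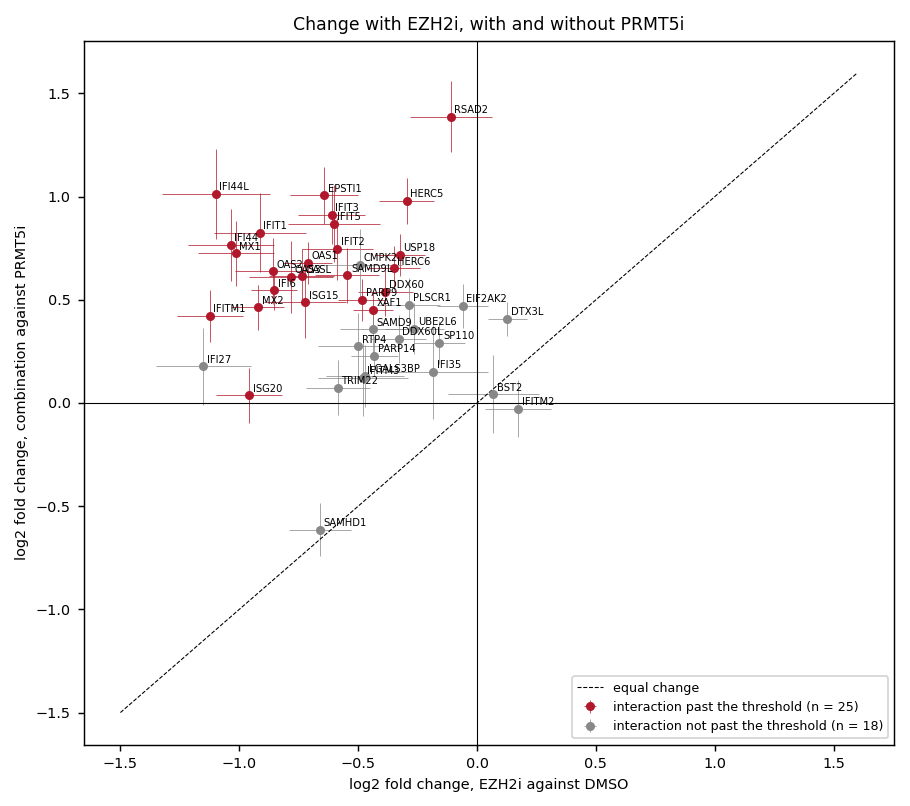
Log2 fold change of each of the 43 genes with EZH2i alone against DMSO (x axis) and with EZH2i added to PRMT5i, that is combination against PRMT5i (y axis), with SE as bars; red genes passed the interaction test and the dashed line marks equal change. Most genes lie in the upper left, lower with EZH2i alone and higher on top of PRMT5i, SAMHD1 lies on the dashed line at about −0.6 on both axes, and BST2 and IFITM2 lie near 0.

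SAMHD1 was highest with PRMT5i alone. It was the only member to fall in the combination against PRMT5i, with 176, 186, 209.8 and 223 CPM with the combination (log2 fold change −0.61, SE 0.13, adjusted p = 0.0118), and EZH2i alone lowered it to 56.8, 55.7, 68.8 and 65.2 CPM (log2 fold change −0.66, SE 0.13, adjusted p = 0.00646). Its interaction was 0.05 with a 95% interval of −0.34 to 0.43, which excludes the 1.04 that was the members' median. The fall against PRMT5i was not called without PRMT5i replicate 3 or 4. BST2, the tetherin that holds budding virions at the cell surface, had 88.1, 75.6, 75.4 and 72.6 CPM with the combination, 76.9, 84.8, 73.3 and 67.7 with PRMT5i, 63.1, 57.0, 58.2 and 47.1 with EZH2i and 27.9, 59.1, 68.7 and 59.2 with DMSO. It passed only in the combination against DMSO (0.54, SE 0.19, adjusted p = 0.0369), and its interaction was −0.03 (95% interval −0.59 to 0.54). DMSO replicate 1, at 27.9 CPM, was the lowest library of all 16 for BST2. Without it the combination stood at 0.30 against DMSO (adjusted p = 0.0363), and the call was lost without any 1 of the 4 combination libraries. IFITM2 and IFI35 passed in none of the 6 comparisons, and both also had their lowest value in DMSO replicate 1.

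That library and DMSO replicate 2 differed along the base composition of genes. DMSO replicate 1 had the lowest scaling factor, 0.861, and the largest share of counts on mitochondrial genes, 1.70% against 0.213% to 0.792% in the other 15 libraries. Across the 43 members the log2 difference between DMSO replicates 1 and 2 correlated with the GC content of their transcripts at r = −0.59 (Spearman −0.57), and across 16427 genes with a GC value at −0.48. These are correlations across genes within 1 pair of libraries, in which all genes share the same depth. Several GC-rich members were low in replicate 1, such as IFI35 (4.69 CPM, against 14.2 in replicate 2) and OAS3 (9.34 against 17.2), and several GC-poor ones were low in replicate 2, such as IFIT1 (27.2, against 53.3 in replicate 1) and TRIM22 (74.1 against 139). ISG15, the most GC-rich member, went the other way (55.2 CPM in replicate 1 and 41.9 in replicate 2), as did IFI27 (9.20 and 6.11 CPM). The members' fold change with EZH2i correlated with GC content at r = −0.04 (Spearman −0.03) and their interaction at r = −0.21 (Spearman −0.19), each across the 43 genes. With each library corrected for GC content, 29 members fell with EZH2i, 38 rose with the combination against DMSO and 29 had a positive interaction, and none moved the other way in these 3 comparisons. The same correction also called more genes over all with EZH2i and for the interaction, with the counts given below. The larger counts of members there are thus not particular to the members.

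**Figure D4:**
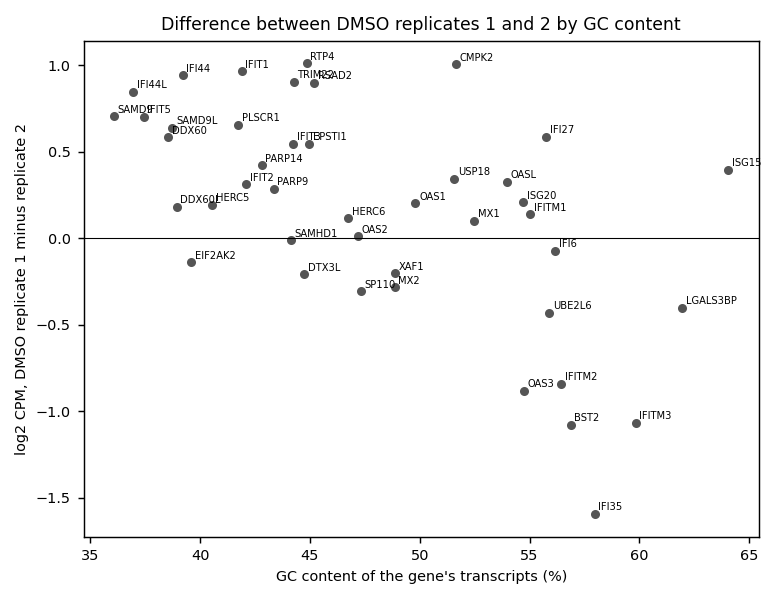
Log2 CPM of the 43 genes in DMSO replicate 1 minus replicate 2 (y axis) against the GC content of their transcripts in percent (x axis); each point is a gene. Genes under 45% GC lie mostly above 0 and 5 of the genes above 54% GC, IFI35, BST2, IFITM3, OAS3 and IFITM2, lie below −0.8.

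Other genes of the interferon pathway were followed from a second list. From this list of 51 interferons, receptors, kinases, transcription factors, sensors and regulators, 43 were tested. With EZH2i alone 0 rose and 7 fell, where 4.11% of all genes rose and 3.49% fell. With PRMT5i alone 13 rose and 6 fell (17.1% and 18.3% of all genes), and with the combination against DMSO 15 rose and 4 fell (17.6% and 18.5%). Against PRMT5i the combination raised 4 and lowered 3 (2.91% and 1.24%), and against EZH2i it raised 17 and lowered 3 (13.4% and 14.6%). The interaction was positive for 3 and negative for 0 (0.254% and 0.0362%). Those that passed include STAT2 (0.62, SE 0.10, adjusted p = 0.00865) and the RNA sensor gene DDX58 (0.88, SE 0.18, adjusted p = 0.0470), which encodes RIG-I. The DDX58 call was lost without any 1 of the EZH2i, PRMT5i or combination libraries, and without DMSO replicate 1, 3 or 4.

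DDX58 averaged 53.9 ± 5.57 CPM with the combination, 36.8 ± 4.43 with PRMT5i, 23.6 ± 1.55 with EZH2i and 29.5 ± 5.19 with DMSO (SD, n = 4 each). IFIH1, which encodes the sensor MDA5, averaged 54.8 ± 7.33 CPM with the combination, 39.8 ± 6.11 with PRMT5i, 26.4 ± 1.18 with EZH2i and 31.5 ± 3.46 with DMSO. Against EZH2i alone the combination raised DDX58 (1.19, SE 0.13, adjusted p = 3.43e-06), IFIH1 (1.05, SE 0.12, adjusted p = 6.77e-06) and IRF9 (0.83, SE 0.11, adjusted p = 2.12e-05). Other regulators had patterns of their own. IRF8, the myeloid factor, fell with EZH2i (−0.55, SE 0.07, adjusted p = 3.38e-04) and IRF5 rose with PRMT5i (0.88, SE 0.09, adjusted p = 1.14e-06). The DNA sensor gene IFI16 (2.25, SE 0.29, adjusted p = 1.47e-05) and the RNA sensor gene TLR3 (adjusted p = 1.84e-05) rose with the combination against DMSO. IFI16 averaged 44.4 CPM with the combination, 32.6 with PRMT5i, 10.6 with EZH2i and 9.27 with DMSO. TLR3 averaged 1.11 CPM with the combination, 0.548 with PRMT5i, 0.366 with EZH2i and 0.273 with DMSO.

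The 9 interferon genes of the second list had few counts, and interferon genes outside it were not followed. IFNA1, IFNE, IFNL2, IFNL3 and IFNG had 0 counts in all 16 libraries, which allows up to 3 counts, or 0.0577 to 0.0935 CPM, per library (counting error only). IFNA2 had 1 count in all, IFNK 20 and IFNL1 24, and these 3 were not tested. IFNB1, the gene of interferon beta, had 70 counts over the 4 combination libraries, 40 over PRMT5i, 27 over EZH2i and 42 over DMSO libraries, and averaged 0.409 ± 0.0762 CPM with the combination, 0.212 ± 0.0585 with PRMT5i, 0.169 ± 0.0455 with EZH2i and 0.262 ± 0.0466 with DMSO. It passed only for the combination against EZH2i (1.27, SE 0.29, adjusted p = 0.00318), and its interaction of 1.53 did not pass (adjusted p = 0.215).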

How the data were processed

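Total RNA of MOLM-13 cells was sequenced as paired-end reads in 16 libraries, 4 for each of 4 treatments. The values that the authors deposited are expected counts from RSEM, 1 for each gene and library, with no scaling to depth. The submitters' processing notes name STAR 2.5.3, RSEM and the build GRCh38 (p7). The version and strand setting of RSEM and the annotation are not stated in the sources used here. All 16 columns were used.

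Expected counts were rounded to whole numbers, since 12.0% of values were not whole. The filter was filterByExpr of edgeR 4.0.16 given the 4 groups. Scaling was by trimmed mean of M values, and a single quasi-likelihood model (R 4.3.3) held the 4 groups and all 16 libraries. P-values were adjusted over all 16555 genes by the Benjamini-Hochberg method. DESeq2 1.42.0 was an alternative. Gene positions, exon lengths, GC content, overlaps and shared 50-base stretches come from GENCODE 29 (GRCh38), and promoters from RefSeq (GRCh38.p14).

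The members, the gene lists and the division of replicates 1 and 2 against 3 and 4 were chosen with earlier results of these data known. Values in every library are given for the members with the largest change past the threshold in each comparison (up to 8 for each single inhibitor, up to 5 otherwise, at 5 CPM or more in the higher group), and for the 5 with the smallest p in the interaction. BST2 and other members named outside this rule were chosen after their values were seen. Of the pathway list, the 8 with the smallest p past the threshold and the interferon genes are named, except for items that are not reported here. Replicates of a group differed by at least 8.98 times the sampling variance, so none is a library deposited as a copy.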

Additional observations from a re-analysis of the deposited data

Results flagged for a closer look

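Single libraries stood apart from the other 3 of their group, by Dixon's criterion on log2 CPM, in 12 of 172 groups of 4, where chance gives about 1 in 20. The rate is not far from that of chance, and the share over all genes is not given here. The entries below are thus a list and not a result about the members. DMSO libraries account for 7 of the 12. DMSO replicate 1 was lowest for OAS3 (9.34 CPM), BST2 (27.9 CPM), XAF1 (88.5 CPM) and IFITM3 (5.43 CPM) and highest for HERC6 (7.71 CPM). DMSO replicate 2 was lowest for EPSTI1 (6.61 CPM) and OASL (15.2 CPM). EZH2i replicate 1 was highest for PARP9 (21.4 CPM) and USP18 (15.4 CPM), PRMT5i replicate 3 lowest for DDX60L (156 CPM), combination replicate 2 highest for TRIM22 (181 CPM) and combination replicate 4 lowest for MX2 (53.7 CPM).

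The effect of EZH2i differed with and without PRMT5i, by the interaction term of the edgeR model, in 25 members. On the log2 scale the difference was 2.11 for IFI44L, 1.80 for IFI44, 1.74 for IFIT1, 1.74 for MX1, 1.65 for EPSTI1, 1.55 for IFITM1, 1.52 for IFIT3, 1.50 for RSAD2 and 1.50 for OAS2. It was 1.47 for IFIT5, 1.40 for IFI6, 1.39 for OAS3, 1.39 for OAS1, 1.38 for MX2, 1.35 for OASL, 1.34 for IFIT2, 1.27 for HERC5 and 1.21 for ISG15. It was 1.16 for SAMD9L, 1.04 for USP18, 1.00 for HERC6, 1.00 for ISG20, 0.98 for PARP9, 0.92 for DDX60 and 0.89 for XAF1.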

How the results depend on the processing

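Over 29 alternatives, of which 1 (without DMSO replicates 1 and 2) was added after the data were seen, no called member changed sign, 74 estimates that had not passed did, and 4577 of 4905 repeats of a call kept it. Leaving out 1 library at a time gave 16 to 33 members past the threshold with EZH2i (median −0.66 to −0.47), 17 to 22 with PRMT5i (0.25 to 0.35), 34 to 38 with the combination against DMSO (0.70 to 0.83), 11 to 28 against PRMT5i (0.45 to 0.56), 39 to 42 against EZH2i (1.20 to 1.32), and 20 to 33 for the interaction (0.97 to 1.12). Calls over all genes in the fits that leave out 1 library are not given beside these counts of members. With only the groups compared, 7 members passed with EZH2i. Within replicates 1 and 2, with 2 libraries a group, the edgeR counts were 0 with EZH2i, 10 with PRMT5i, 0 for the combination against PRMT5i and 0 for the interaction, and medians became 0.50 with PRMT5i, 1.01 and 1.37 for the combination against DMSO and EZH2i, and 0.91 for the interaction. Within replicates 3 and 4 the medians were 0.14 with PRMT5i, 0.63 for the combination against DMSO and 1.18 for the interaction. Without DMSO replicates 1 and 2 the medians were −0.64 with EZH2i and 0.19 with PRMT5i. Scaled by total counts only, the combination against DMSO had a median of 0.91 while the median of all genes was 0.13, and all genes split into 855 higher and 289 lower with EZH2i (in place of 681 and 578), 3897 and 2021 for the combination against DMSO (2920 and 3070), and 748 and 121 against PRMT5i (482 and 206). Over all genes DESeq2 called 2142 with EZH2i (in place of 1259), 1064 for the combination against PRMT5i (688) and 120 for the interaction (48), and the GC correction called 3083, 1306 and 118. Where calls were lost the cause was not tested, beyond the fewer libraries of such fits.

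The labels state no pairing of samples by replicate number. Deviations of same-numbered libraries correlated at −0.27 to 0.24, and 9 of 24 pairs exceeded 0.1. A library correlated best with its own number in 14 of 48 tries. These correlations cannot exclude a pairing, since traits of single libraries, such as those of DMSO replicate 1, enter the deviations too. With the replicate block the counts of members were 24 with EZH2i, 22 with PRMT5i, 35 with the combination against DMSO, 27 against PRMT5i, 39 against EZH2i and 26 for the interaction. They describe the members only, since calls over all genes with the block are not given here.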

Other observations

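Neighbouring effector genes did not always move alike with EZH2i, though differences between genes were not tested. PARP9 and DTX3L, whose products form a complex, overlap at their starts on opposite strands of chromosome 3. With EZH2i alone PARP9 fell (−0.48, SE 0.10, adjusted p = 0.00993) while DTX3L did not pass (0.13, SE 0.08, adjusted p = 0.327), and with the combination against PRMT5i both rose (0.50, SE 0.10, adjusted p = 0.00931 for PARP9 and 0.41, SE 0.08, adjusted p = 0.00930 for DTX3L). RSAD2 and CMPK2, which overlap at their starts on chromosome 2, both passed for the combination against DMSO, at 1.20 for RSAD2 and 1.05 for CMPK2. Neither passed with PRMT5i (−0.19 for RSAD2, 0.38 for CMPK2) or EZH2i (−0.11 for RSAD2, −0.49 for CMPK2). SAMD9 and SAMD9L on chromosome 7 had −0.44 (not past) and −0.55 (past) with EZH2i, and 0.78 and 1.16 (both past) with the combination against DMSO.

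In combination libraries 27 of 43 members had replicates 1 and 2 above replicates 3 and 4 and 2 the reverse, where 21.95% of all tested genes did so and 21.03% the reverse. In EZH2i libraries 7 members did so and 10 the reverse (17.4% and 15.1% of all genes), and in DMSO libraries 1 did so and 17 the reverse (13.4% and 12.8%).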
